A study of Mus musculus with 8 samples.

Results

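Transcripts of secreted and matrix proteins that are commonly used to describe alternative activation of mouse macrophages were followed across resting and stimulated cells. The set was given by name as Retnla, Chi3l3, Chi3l4, Ear11, Rnase2a, Fn1 and Tgm2. Of these 7 names, 6 were rows of the deposited expression table, among 20258 rows with a gene symbol, and all 6 rows were among the 13615 that varied between libraries and were tested. No row carried the name Rnase2a. RefSeq gives the transcript in the Ear11 row to the gene it now calls Rnase2a, so both names stand for the same measurement here.

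The cells were macrophages derived from C57BL/6 bone marrow and cultured over 24 h with the cytokine IL4 (3 libraries), with bacterial lipopolysaccharide and interferon gamma together (LPS plus IFNg, 3 libraries), or with no stimulus (unstimulated, 2 libraries). All came from the same strain, and the labels name no altered gene. Polyadenylated RNA was measured by 3' end sequencing, which reads the end of each transcript. The authors' values are log2 expression after quantile normalisation, and 1 unit between groups well above 0 is a doubling. Each library also held 74 to 202 values below 0, beside 8219 to 10210 rows listed at exactly 0. A difference from a group at or near 0 is therefore not a count of doublings. Levels of different genes are not directly comparable, so genes are compared by their differences between groups. Sums of linear levels over marker genes are given only to set libraries side by side, and genes with high values dominate them.

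Alternative activation is the state that macrophages enter under IL4 or IL13, which signal through the IL4 receptor and the transcription factor STAT6. It is known in mice for a strong output of secreted proteins, among them the resistin-like protein encoded by Retnla and the chitinase-like lectins encoded by Chi3l3 and Chi3l4, and it is linked to tissue repair, in which fibronectin and transglutaminase build and cross-link matrix. LPS and IFNg together drive the classical, antimicrobial state, which runs through NF-kappaB and interferon signalling.

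The stimuli left their known marks. Arg1, the arginase of alternative activation, averaged 13.58 ± 0.15 in IL4 libraries and 3.25 ± 1.33 in unstimulated libraries (SD, n = 3 and 2; limma adjusted p = 0.000335). Cxcl9, an interferon-induced chemokine, averaged 13.64 ± 0.54 in LPS plus IFNg libraries and 1.71 ± 0.21 in unstimulated libraries (SD, n = 3 and 2; limma adjusted p = 7.38e-05). All 10 macrophage markers examined stood above 0 in each group. Between 2964 and 3568 of the tested rows were listed at 0 in the 6 stimulated libraries, against 1577 and 2588 in the 2 unstimulated ones; the depth behind the values is unknown. Since these are bulk samples, fewer cells of a kind and less RNA per cell cannot be told apart. Separate cultures or animals are not named for the replicates, and the p-values therefore cover the spread among these libraries alone, which may be technical.

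RefSeq promoter sequence was at hand for 4 of the 6 genes, taken from 250 bases before to 50 bases after the annotated start on the mouse build GRCm38.p6. It is shown for the 3 genes that held a TTC-GAA palindrome, so that their responses can be read beside the letters upstream of them. TTCNNNNGAA, the spacing that STAT6 is known to prefer, and TTCNNNGAA, the same palindrome with a shorter spacer, were searched; each reads the same on both strands and the spacings cannot overlap as the same site. Matches are in capitals. Sequences run 5′ to 3′ along the strand of the gene. Retnla lies on the plus strand (chr16:48842359-48842658), Chi3l3 on the minus strand (chr3:106167515-106167814) and Chi3l4 on the minus strand (chr3:106219430-106219729).
Retnla: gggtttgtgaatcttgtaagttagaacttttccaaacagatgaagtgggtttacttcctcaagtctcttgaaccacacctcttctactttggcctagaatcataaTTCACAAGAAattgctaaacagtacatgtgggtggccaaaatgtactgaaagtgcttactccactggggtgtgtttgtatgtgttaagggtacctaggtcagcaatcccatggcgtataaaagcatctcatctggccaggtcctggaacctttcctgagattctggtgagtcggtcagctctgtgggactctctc
Chi3l3: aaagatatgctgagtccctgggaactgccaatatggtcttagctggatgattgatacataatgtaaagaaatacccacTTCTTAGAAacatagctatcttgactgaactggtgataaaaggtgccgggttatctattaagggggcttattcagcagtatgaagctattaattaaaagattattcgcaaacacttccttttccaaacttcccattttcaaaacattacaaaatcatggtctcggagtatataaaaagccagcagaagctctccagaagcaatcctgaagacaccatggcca
Chi3l4: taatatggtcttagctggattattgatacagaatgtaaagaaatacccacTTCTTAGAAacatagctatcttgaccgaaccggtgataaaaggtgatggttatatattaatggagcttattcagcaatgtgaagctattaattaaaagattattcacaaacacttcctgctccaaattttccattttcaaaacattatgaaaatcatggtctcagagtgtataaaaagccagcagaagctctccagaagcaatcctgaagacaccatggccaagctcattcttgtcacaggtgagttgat
The Retnla window held 1 TTCNNNNGAA, written TTCACAAGAA, with its first base at -145 from the start. Chi3l3 and Chi3l4 each held 1 TTCNNNGAA, with the same letters TTCTTAGAA, at -172 and at -200. The Ear11 window (chr14:51256063-51256362, minus strand) held neither. Of 32851 mouse promoter windows of this length, 6.95% held TTCNNNNGAA and 8.3% held TTCNNNGAA, so such matches are frequent and describe the letters, not a bound site. The Chi3l3 and Chi3l4 windows matched at 92.6% of 271 aligned positions, while the other pairs of these 4 windows matched at 53.3% to 56.8%.

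Retnla encodes a small cysteine-rich secreted protein, known as RELM-alpha or FIZZ1, that acts in parasite infection and tissue repair. Its log2 expression was 12.41, 11.51 and 11.47 in the 3 IL4 libraries, 0.63, 0 and 0 in the LPS plus IFNg libraries, and 0.07 and 0 in the unstimulated libraries. It was thus high in every IL4 library and at or near 0 in all 5 others. Retnla rose under IL4 by 11.76 on the log2 scale against no stimulus (SE 0.65, 95% interval 10.24 to 13.28, limma adjusted p = 0.000656), rank 1 of the 13615 tested rows. It was also first in the comparison of IL4 with LPS plus IFNg, with a difference of 11.59 (SE 0.58, limma adjusted p = 0.000109). The exact size is uncertain in both, because the handling of zeros was not given in the sources used here. LPS plus IFNg and unstimulated libraries overlapped, and their difference of 0.18 (95% interval -1.34 to 1.70, limma adjusted p = 0.943) could not be separated from 0.

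**Figure D1:**
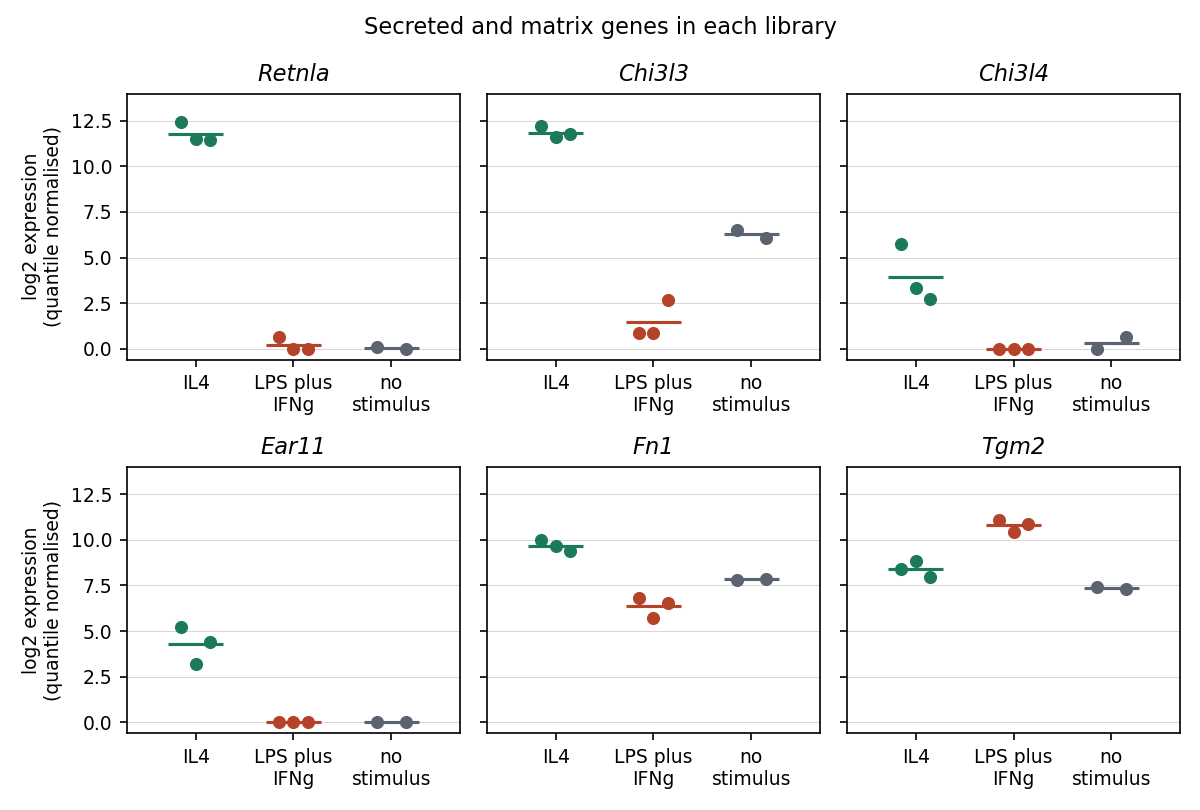
Log2 expression (y axis, quantile normalised) of the 6 genes in each library (points), by group (x axis), with the group mean as a line, for 3 IL4, 3 LPS plus IFNg and 2 unstimulated libraries. Retnla, Chi3l3, Chi3l4, Ear11 and Fn1 were highest in IL4 libraries, and Tgm2 in LPS plus IFNg libraries.

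No other resistin gene showed the Retnla pattern. Retnlg, which in mice is expressed in neutrophils and their precursors, read 4.85, 0 and 4.56 in IL4 libraries, 1.95, 0 and 0 in LPS plus IFNg libraries, and 6.29 and 5.56 in unstimulated libraries. It was highest in the unstimulated libraries, and no comparison of Retnlg passed the test. Without IL4 replicate 2, where it was at 0, it was lower in LPS plus IFNg than in unstimulated libraries (limma adjusted p = 0.0245) and higher in IL4 than in LPS plus IFNg libraries (limma adjusted p = 0.0454). Retnlb and Retn were at 0 in every library.

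Chi3l3 encodes Ym1, a secreted lectin of the chitinase fold that is known to lack chitinase activity and to form crystals in inflamed mouse lung. Its log2 expression was 12.22, 11.59 and 11.76 in IL4 libraries, 0.85, 0.88 and 2.66 in LPS plus IFNg libraries, and 6.51 and 6.08 in unstimulated libraries. Unlike Retnla it was well above 0 in resting cells, and the 3 groups formed separate steps without overlap. Under IL4 it rose by 5.56 against no stimulus (SE 0.59, limma adjusted p = 0.0134), which is 47.1-fold (95% interval 18.1 to 123). Under LPS plus IFNg it fell by 4.83 against no stimulus (SE 0.59, limma adjusted p = 0.0041), rank 90 from the lowest of the tested rows. Between IL4 and LPS plus IFNg the difference was 10.39 (SE 0.53, limma adjusted p = 0.000111), rank 2 after Retnla. The exact size and rank of both differences from LPS plus IFNg are uncertain. Chi3l3 was low in those libraries, at 0.85 to 2.66, and the handling of zeros was not given. The rise under IL4 no longer passed without unstimulated replicate 2 (limma adjusted p = 0.0595), while the fall under LPS plus IFNg passed whichever library was left out.

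A list of neutrophil and precursor markers, cells that are also known to make Ym1, moved in the same direction as Chi3l3 under LPS plus IFNg. Its summed linear level was 1071 to 1815 in IL4 libraries, 214 to 321 in LPS plus IFNg libraries and 2364 to 2600 in unstimulated libraries, over 11 of its 12 genes with a row, of which 10, 8 and 10 were above 0 in those groups. Ctsg was at 0 in LPS plus IFNg and unstimulated libraries, Prtn3 in IL4 and LPS plus IFNg libraries, and Mpo in LPS plus IFNg libraries. Unlike Chi3l3, the summed level was lower in IL4 than in unstimulated libraries, and S100a8 and S100a9 made up most of it. Of the 11 genes, 0 passed for IL4 against no stimulus (1.31% of all tested rows did), and Mpo (0.34) and Ctsg (1.43) had higher means in IL4. Ctsg read 0, 4.29 and 0 in IL4 libraries. Mpo read 5.98, 4.70 and 1.81 there, and 3.23 and 4.41 in unstimulated libraries, so its groups overlapped. For LPS plus IFNg against no stimulus 4 of the 11 genes were lower (4.25% of all rows), and 2 to 5 with 1 library left out. The part of these markers in the Chi3l3 result was not tested.

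Chi3l4 encodes Ym2, a close relative of Ym1. Its log2 expression was 5.74, 3.35 and 2.73 in IL4 libraries, 0 in each LPS plus IFNg library, and 0 and 0.62 in unstimulated libraries. Each IL4 library stood above all others, but the IL4 libraries spanned 3 log2 units, so that the mean was 3.94 ± 1.59 in IL4 and 0.31 ± 0.44 in unstimulated libraries (SD, n = 3 and 2). The difference against no stimulus, 3.63 (SE 0.93, 95% interval 1.44 to 5.81), did not pass (limma adjusted p = 0.153). Against LPS plus IFNg, where it was listed at 0 throughout, Chi3l4 was higher in IL4 libraries (limma adjusted p = 0.0219), but this call was lost without any single LPS plus IFNg library (adjusted p 0.0655, 0.069 and 0.067 without replicates 1, 2 and 3) and without unstimulated replicate 2 (0.0546).

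The last 300 bases of the Chi3l3 and Chi3l4 transcripts, where 3' end reads fall, were identical at 269 of 299 aligned positions in GENCODE M21. Of the 265 stretches of 36 bases in each of these ends, 0 occurred exactly in another gene. Exact stretches do not cover reads aligned with mismatches, so they cannot show that reads of these genes were kept apart. The handling of reads with several matches was not given in the sources used here. Other members of the family did not share the pattern: Chi3l1 was at 0 in all stimulated libraries and read 0.23 and 0.62 in unstimulated ones, Chia and Chit1 were at 0, and Chid1, Ctbs and Ovgp1 passed no comparison.

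Ear11 encodes a secreted ribonuclease of the eosinophil-associated branch of the RNase A family. Its log2 expression was 5.23, 3.22 and 4.41 in IL4 libraries and 0 in all 5 others. The mean was 4.28 ± 1.01 in IL4 libraries (SD, n = 3), and it was higher there than in unstimulated libraries (limma adjusted p = 0.0434) and than in LPS plus IFNg libraries (limma adjusted p = 0.00553). No fold is given against groups listed at 0. The call against no stimulus was close to the threshold and was lost when any library but IL4 replicate 2 was left out (adjusted p 0.0527 to 0.104), while that against LPS plus IFNg passed under each of those omissions.

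Ear1, Ear2, Ear10 and Ear12 of the same family varied more between IL4 libraries than Ear11 did. Ear2 read 6.90, 6.86 and 1.42 in IL4 libraries, 0 in each LPS plus IFNg library, and 0 and 3.05 in unstimulated libraries. Ear12 read 5.83, 4.34 and 1.42 in IL4 libraries and 0 elsewhere. Neither passed for IL4 against no stimulus (limma adjusted p = 0.493 for Ear2 and 0.223 for Ear12), nor did Ear1 (0.301) or Ear10 (0.921), and in IL4 replicate 3 Ear2 lay below unstimulated replicate 2. Ear2 and Ear12 did not pass for IL4 against LPS plus IFNg (limma adjusted p = 0.091 for Ear2 and 0.0556 for Ear12), and both passed without IL4 replicate 3 (0.0113 for Ear2 and 0.00634 for Ear12). In that library Ear1, Ear2, Ear10 and Ear12 carried the same value, 1.4228. Of the 36-base stretches in the last 300 bases, 75.5% for Ear1, 52.1% for Ear2 and 66.8% for Ear10 occurred exactly in another gene, so the reads of these genes can be split or shared between rows. For Ear11 this was 4.15%, or 11 of 265, the lowest share among these 4. Its end still matched that of Ear1 at 86% and that of Ear2 at 85.6% of 299 aligned positions. Exact stretches do not cover reads aligned with mismatches, so they cannot show that Ear11 reads were kept apart. No transcript end was at hand for Ear12. Ear4, Ear6, Ear7 and Ear14 were at 0 in every library.

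Rnase4, a more widely expressed ribonuclease of the same family, behaved differently. It read 8.86, 8.35 and 8.79 in IL4 libraries, 5.41, 5.29 and 5.89 in LPS plus IFNg libraries, and 8.51 and 8.69 in unstimulated libraries. It was low in LPS plus IFNg libraries and overlapped between the other groups. Rnase4 fell by 3.07 under LPS plus IFNg against no stimulus (SE 0.28, limma adjusted p = 0.00178). Of the 9 tested RNase A genes other than Ear11, 0 passed for IL4 against no stimulus (1.31% of all tested rows did), 1 was lower for LPS plus IFNg against no stimulus (4.25% of all rows), and 2 were higher for IL4 against LPS plus IFNg (6.96% of all rows). Their median differences were 0.91, -0.37 and 2.61 in these comparisons, against -0.01, -0.04 and 0 over all tested rows. With 1 library left out, 0 to 1 were higher and 0 to 1 lower in the first of these comparisons, 1 to 3 were lower in the second and 1 to 3 higher in the third; the second was 3 without unstimulated replicate 2, and the third was 3 without IL4 replicate 3 and 1 without any single LPS plus IFNg library.

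Markers of eosinophils, the cells that give this ribonuclease branch its name, were examined beside Ear11. The summed linear level of 6 such genes was 27.7 to 192 in IL4 libraries, 0 to 3.29 in LPS plus IFNg libraries and 79.4 to 168 in unstimulated libraries. Epx, Prg3 and Il5ra, which encode eosinophil peroxidase, a granule protein and the IL5 receptor chain, were at 0 in all 8 libraries. Ccr3, which encodes an eotaxin receptor, read 4.79, 7.42 and 7.25 in IL4 libraries, 0 in each LPS plus IFNg library, and 6.08 and 7.22 in unstimulated libraries. Like Ear11 it was higher in IL4 than in LPS plus IFNg libraries (limma adjusted p = 0.0038). It was lower in LPS plus IFNg than in unstimulated libraries (limma adjusted p = 0.00787, and 0.0684 without unstimulated replicate 2), and it overlapped between IL4 and unstimulated libraries. Siglec5 read 0, 0 and 3.11 in IL4 libraries and 1.72, 0 and 0 in LPS plus IFNg libraries. Unlike Ear11, it was highest in unstimulated libraries, at 3.38 and 4.26, and it passed in no comparison. Prg2 read 0, 4.39 and 0 in IL4 libraries and 0.26 and 0 in unstimulated libraries. It was 0 in each LPS plus IFNg library and passed in no comparison. The part of these markers in the Ear11 results was not tested.

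**Figure D2:**
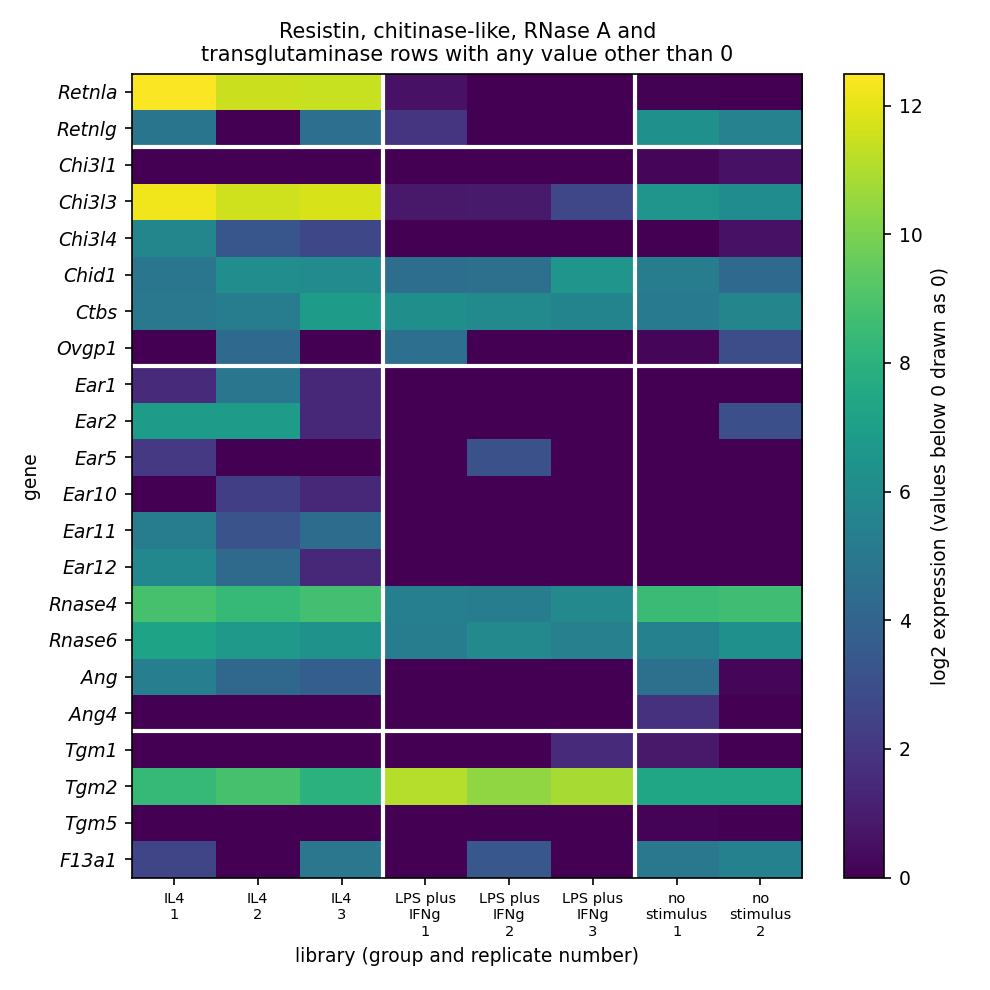
Log2 expression (colour) of the resistin, chitinase-like, RNase A and transglutaminase genes with any value other than 0 (rows) in each library (columns, by group and replicate number). Retnla, Chi3l3, Chi3l4 and Ear11 are brightest in the IL4 columns, Rnase4 is darkest in the LPS plus IFNg columns, and Tgm2 is brightest there.

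Fn1 encodes fibronectin, the secreted glycoprotein that assembles into matrix fibrils and binds integrins and collagen. Its log2 expression was 10.02, 9.68 and 9.38 in IL4 libraries, 6.84, 5.73 and 6.53 in LPS plus IFNg libraries, and 7.82 and 7.86 in unstimulated libraries. The order of the groups was that of Chi3l3, with IL4 highest, unstimulated between and LPS plus IFNg lowest, and no libraries overlapped. Between IL4 and LPS plus IFNg the difference of 3.33 (SE 0.32, 95% interval 2.58 to 4.08) passed (limma adjusted p = 0.000969) whichever library was left out. The steps on either side of the unstimulated libraries were smaller and missed the threshold. Fn1 was 1.85 higher in IL4 than in unstimulated libraries (SE 0.36, 95% interval 1.01 to 2.69, limma adjusted p = 0.0651), and 1.48 lower in LPS plus IFNg than in unstimulated libraries (SE 0.36, 95% interval 0.64 to 2.32 lower, limma adjusted p = 0.0502). Each of these steps passed when 1 LPS plus IFNg library was left out, the first without replicate 2 (0.0491) and the second without replicate 1 (0.0431). When libraries were set to equal ribosomal protein means instead, which moved the median of all tested rows by 1.45 for LPS plus IFNg against no stimulus, the second step was -0.03 (limma adjusted p = 0.953).

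Other matrix genes were read beside Fn1. Of 27 tested matrix glycoproteins and collagens besides Fn1, 0 passed for IL4 against no stimulus, where 1.31% of all tested rows passed (median difference -0.69, against -0.01 over all tested rows). For LPS plus IFNg against no stimulus 1 was higher and 2 were lower, where 3.72% and 4.25% of all rows were (median -0.77, against -0.04). For IL4 against LPS plus IFNg 1 was higher and 5 were lower, where 6.96% and 5.91% of all rows were (median -0.09, against 0). With equal ribosomal protein means, 7 were higher and 0 lower for LPS plus IFNg against no stimulus (median 0.68), and 1 was higher and 16 lower for IL4 against LPS plus IFNg (median -1.55), beside shifts of the all-row median of 1.45 and -1.46. When 1 library was left out, 0 to 1 passed in the first of these comparisons, 0 to 2 were higher and 1 to 3 lower in the second, and 1 to 2 were higher and 4 to 5 lower in the third.

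Thbs1, which encodes the matricellular protein thrombospondin-1, read 8.41, 7.94 and 7.20 in IL4 libraries and 10.08, 10.05 and 10.76 in LPS plus IFNg libraries, a difference of -2.45 (SE 0.34, limma adjusted p = 0.00407). Vcan, which encodes the proteoglycan versican, read 0, 0 and 2.05 in IL4 libraries and 6.25, 6.86 and 7.02 in LPS plus IFNg libraries (limma adjusted p = 0.0123). Fbln2, which encodes fibulin-2, was at 0 in each IL4 library and read 5.74, 5.10 and 5.51 in LPS plus IFNg libraries (limma adjusted p = 0.0147). These 3 thus stood opposite to Fn1 in this comparison. Unstimulated libraries read 9.49 and 9.30 for Thbs1, 3.32 and 0 for Vcan, and 4.96 and 1.15 for Fbln2. None of these 3 passed against no stimulus under IL4 or under LPS plus IFNg. Postn, which encodes periostin, had the largest difference in the direction of Fn1, at 4.63 ± 1.20 in IL4 and 0.99 ± 0.94 in LPS plus IFNg libraries (SD, n = 3 each), and did not pass (limma adjusted p = 0.055).

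Lgals3, which encodes the secreted lectin galectin-3, was the matrix-list gene that passed in the direction of Fn1. It read 14.32, 13.77 and 13.97 in IL4 libraries, 11.70, 11.79 and 11.76 in LPS plus IFNg libraries, and 13.69 and 13.27 in unstimulated libraries. Its difference between IL4 and LPS plus IFNg was 2.27 (SE 0.23, limma adjusted p = 0.00116). Against no stimulus it fell by 1.73 under LPS plus IFNg (SE 0.26, limma adjusted p = 0.00776), which with equal ribosomal protein means was -0.28 (adjusted p = 0.424).

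Of 8 tested fibronectin receptors, 0 passed for IL4 against no stimulus (1.31% of all tested rows did), 2 were higher and 2 lower for LPS plus IFNg against no stimulus (3.72% and 4.25% of all rows), and 2 were higher and 1 lower for IL4 against LPS plus IFNg (6.96% and 5.91%). Their median differences were 0.31, -0.39 and 0.92 in these comparisons, against -0.01, -0.04 and 0 over all tested rows. These counts were not stable. With 1 library left out they were 0 to 2 higher and 0 to 1 lower in each comparison with LPS plus IFNg, and no receptor is described singly for that reason. Markers of fibroblasts, cells that make fibronectin in large amounts, were read over 8 genes. Of these, 7, 8 and 7 were above 0 in IL4, LPS plus IFNg and unstimulated libraries. Their summed linear level was 1231 to 1751, 1334 to 2523 and 2589 to 3304 in these groups. Col1a1 and Col1a2 made up most of it in every library, while Thy1 was at 0 in IL4 and Lum in unstimulated libraries. The part of these markers in the Fn1 result was not tested.

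**Figure D3:**
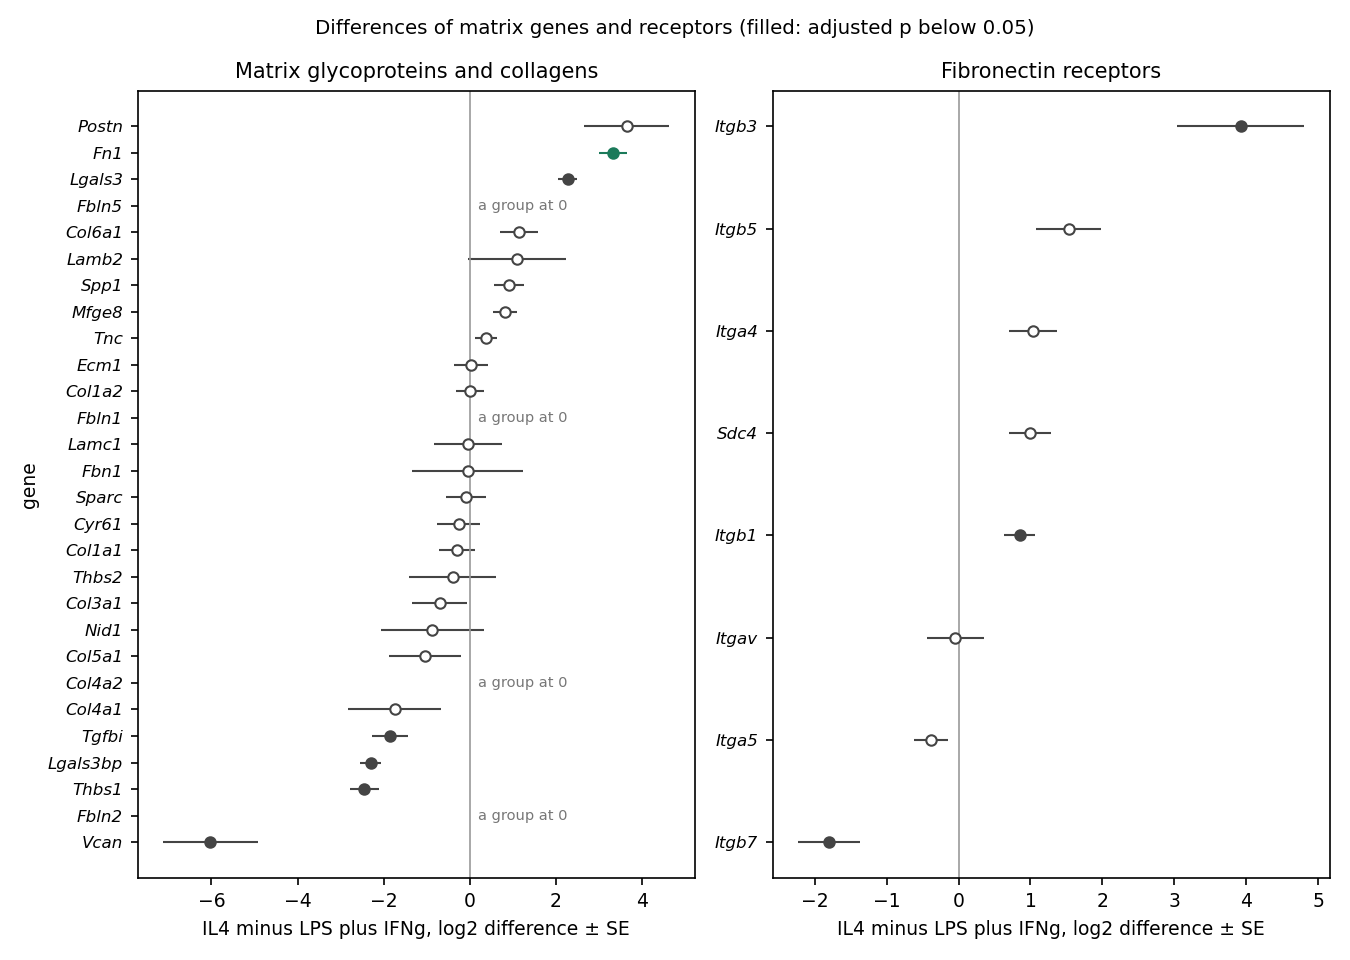
Log2 difference of IL4 minus LPS plus IFNg (x axis, bars show SE) for matrix genes (left) and fibronectin receptors (right), with filled points at a limma adjusted p below 0.05 and no point where a group was listed at 0 in every library. Fn1 (green), at 3.33, lies at the upper end, whereas Vcan and Thbs1 lie at the lower end.

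Tgm2 encodes transglutaminase 2, which cross-links proteins, fibronectin among its substrates, and has been described as a marker of IL4-treated macrophages in mice and humans. Its log2 expression was 8.40, 8.86 and 7.98 in IL4 libraries, 11.10, 10.42 and 10.89 in LPS plus IFNg libraries, and 7.40 and 7.33 in unstimulated libraries. It was highest in LPS plus IFNg libraries, with IL4 libraries between and no overlap. Under LPS plus IFNg it rose by 3.44 against no stimulus (SE 0.31, limma adjusted p = 0.00149), which is 10.9-fold (95% interval 6.61 to 17.9). Its difference between IL4 and LPS plus IFNg was -2.39 (SE 0.27, 95% interval -3.03 to -1.75, limma adjusted p = 0.00187), or 5.26-fold lower in IL4. The IL4 libraries stood 1.05 above the unstimulated ones (SE 0.31, 95% interval 0.33 to 1.76), which did not pass (limma adjusted p = 0.199). Both calls against LPS plus IFNg held with any library left out.

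Of the other transglutaminases, Tgm3, Tgm4, Tgm6, Tgm7, F13b and Epb4.2 were at 0 in every library. Tgm1 lay between -3.15 and 1.48 and Tgm5 between 0 and 0.12, and neither passed in any comparison. F13a1, which encodes the transglutaminase of blood clotting and is also made by macrophages, read 2.60, 0 and 4.97 in IL4 libraries, 0, 3.38 and 0 in LPS plus IFNg libraries, and 4.999 and 5.48 in unstimulated libraries. It was highest in unstimulated libraries and passed in no comparison.

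Across the set, 3 of 6 rows (Retnla, Chi3l3 and Ear11) were higher and 0 were lower in IL4 than in unstimulated libraries, where 1.31% of all tested rows passed, 0.514% higher and 0.793% lower. Without unstimulated replicate 2 that count was 1, Retnla. For LPS plus IFNg against no stimulus, 1 row was higher (Tgm2) and 1 was lower (Chi3l3), where 7.97% passed, 3.72% higher and 4.25% lower. For IL4 against LPS plus IFNg, 5 rows were higher and 1, Tgm2, was lower, where 12.9% passed, 6.96% higher and 5.91% lower. Libraries did not overlap for 6 of 6 rows between IL4 and unstimulated, in each case with IL4 higher, against 11.7% of all tested rows higher and 14.7% lower. They did not overlap for 3 rows between LPS plus IFNg and unstimulated, with Tgm2 higher (16.1% of all tested rows) and Chi3l3 and Fn1 lower (20.7%), or 36.7% in either direction. Between IL4 and LPS plus IFNg they did not overlap for 6 of 6 rows, 5 higher (14.8% of all tested rows) and 1 lower (12.4%). The names were chosen as genes of alternative activation, so their direction under IL4 is not independent evidence of that state. The comparisons share libraries, and each is given by its own values.

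**Figure D4:**
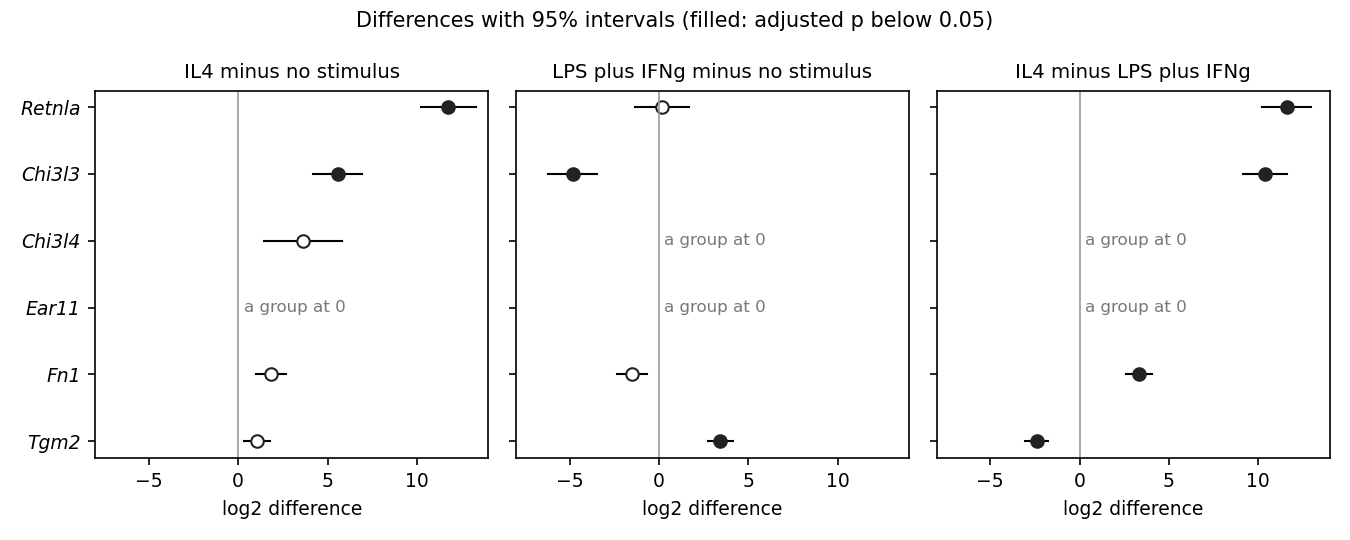
Log2 differences (x axis) of the 6 genes for IL4 minus no stimulus, LPS plus IFNg minus no stimulus and IL4 minus LPS plus IFNg, with 95% intervals; filled points have a limma adjusted p below 0.05, and no point is drawn where a group was listed at 0. Retnla and Chi3l3 show the largest differences in the left and right panels, and Chi3l3 and Tgm2 in the middle panel. Tgm2 is the gene to the left of 0 in the right panel.

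Within the IL4 group, replicate 1 gave the highest value for 5 of the 6 rows, and Tgm2 was highest in replicate 2. Over the 11653 rows that differed between the IL4 libraries, replicate 1 was highest for 31.1%, replicate 2 for 34.3% and replicate 3 for 33.2%. The range over IL4 libraries was 0.94 for Retnla, 0.63 for Chi3l3, 0.64 for Fn1 and 0.88 for Tgm2, and 3.01 for Chi3l4 and 2.01 for Ear11, which are nearer to 0.

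A list of other IL4 response genes was read beside the set. Besides genes known to respond to IL4, it holds receptor and signalling genes (Il4ra, Il13ra1, Il2rg, Jak1, Jak3 and Stat6). None of these receptor and signalling genes passed for IL4 against no stimulus, and Il4ra and Il2rg were lower in IL4 than in LPS plus IFNg libraries. Of the 32 genes tested from the whole list, 11 were higher and 0 lower in IL4 than in unstimulated libraries, where 0.514% and 0.793% of all tested rows were. The median difference was 2.65, against -0.01 over all tested rows. In IL4 against LPS plus IFNg libraries 18 were higher and 4 lower, where 6.96% and 5.91% of all rows were (median 2.79, against 0). For LPS plus IFNg against no stimulus 10 were higher and 5 lower, where 3.72% and 4.25% of all rows were (median 0.46, against -0.04). With 1 library left out the first count was 7 to 11, with 7 without LPS plus IFNg replicate 2, and the last counts were 5 to 9 higher and 3 to 5 lower, with 5 higher without unstimulated replicate 2. When LPS plus IFNg libraries were kept out of the model altogether, the first count was 3. Mgl2, a macrophage lectin, read 10.19, 10.76 and 10.16 in IL4 libraries and 0 in all others (limma adjusted p = 0.00213 against no stimulus), so its on and off pattern was that of Retnla. Arg1 read 7.80, 7.57 and 7.57 in LPS plus IFNg libraries, a rise of 4.40 against no stimulus (SE 0.48, limma adjusted p = 0.00287), whereas Retnla, Chi3l4 and Ear11 stayed at or near 0 there and Chi3l3 fell.

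The rows whose profile over the 8 libraries lay nearest to each gene were found by the root-mean-square difference of centred log2 values, among 8529 rows with a group mean of at least 5. Mgl2 was nearest to Retnla (0.751), followed by Scn3a (2.08) and Tmem26 (2.20). Irf4, a transcription factor of IL4 responses, was nearest to Chi3l3 (1.60), followed by Batf3 (1.67) and Il1rl1 (1.69), which encodes the IL33 receptor. The distances were smaller for the genes whose differences were smaller. Dusp4 (0.298), Gatm (0.32) and the integrin gene Itgax (0.425) were nearest to Fn1, and Creb5 (0.287), Ehd1 (0.406) and Rapgef2 (0.444) to Tgm2. Chi3l4 and Ear11 had no group mean of 5 and were left out. These likenesses are descriptions over libraries of the same groups.

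**Figure D5:**
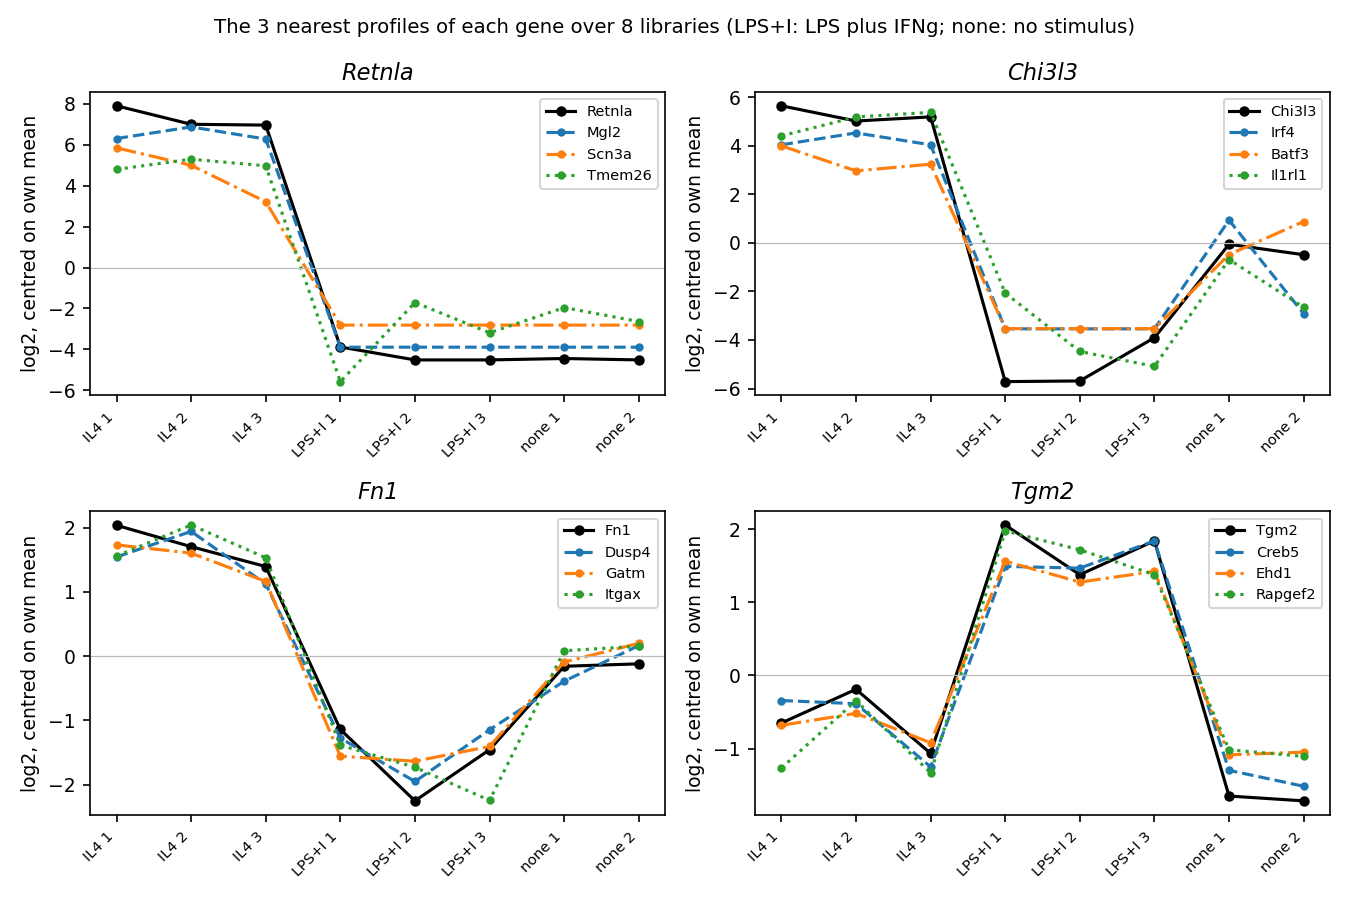
Centred log2 expression (y axis) of Retnla, Chi3l3, Fn1 and Tgm2 (black) and the 3 nearest rows of each (colours) in the 8 libraries (x axis). The Retnla, Chi3l3 and Fn1 panels peak in IL4 libraries, and the Tgm2 panel in LPS plus IFNg libraries.

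Itgax is also among the dendritic cell markers examined. Their summed linear level was 1025 to 1475 in IL4 libraries, 112 to 177 in LPS plus IFNg libraries and 370 to 441 in unstimulated libraries, over 8 genes of which 5 were above 0 in each group. Xcr1, Ccr7 and Cd209a were at 0 in IL4 and unstimulated libraries, and Flt3, Zbtb46 and Siglech in LPS plus IFNg libraries. Itgax alone read 9.99, 10.47 and 9.96 on the log2 scale in IL4 libraries, 7.04, 6.70 and 6.19 in LPS plus IFNg libraries, and 8.51 and 8.58 in unstimulated libraries, and it made up most of the sum. Without Itgax, a reading chosen after seeing the data, the other 7 genes summed to 29.5 to 62.8 in IL4 libraries, 38.9 to 44.8 in LPS plus IFNg libraries and 4.82 to 57.1 in unstimulated libraries, and the groups overlapped.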

How the data were processed

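The deposited data are 1 table of log2 values, which the authors quantile normalised per the file's name, from 3' end sequencing of mouse macrophages, with 8 library columns matched to samples by the barcodes in the labels. TopHat and the build mm9 are named in the submitters' processing notes; the aligner's version, the counting, the treatment of reads with several matches and that of zeros were not given in the sources used here. The members and gene lists were chosen with earlier results of these data known. Rows with 1 constant value (6643) were left out, leaving 13615 for testing. A model with group means and an intensity trend was fitted over the 8 libraries in limma 3.58.1 (R 4.3.3); tests were two-sided, with Benjamini-Hochberg adjustment over the tested rows and a threshold of 0.05. No pseudocount or low-value filter was used. Every gene of the set is described in every library; from related lists, family members above 0 and up to 3 genes past the threshold and 1 not past it were eligible to be named, and not all are described. The lists cover resistin, chitinase-like, RNase A and transglutaminase families, matrix, fibronectin receptors, IL4 and interferon responses, and markers of macrophages, eosinophils, fibroblasts, neutrophils, mast cells, dendritic cells and lymphocytes. Promoters are RefSeq's for GRCm38.p6 and serve for sequence only, since the expression table rests on mm9; transcript ends are from GENCODE M21. Sequences were aligned with Biopython 1.88. Fits were tested on simulated data with a normal spread about each row's mean. No group was held at 0 in them, so they do not cover rows where a group is at 0. Alternatives were a fit of only the 2 groups compared, no intensity trend, a filter on the lowest 0.25 of rows by mean, damping of low values, values below 0 set to 0, equal means of 11 housekeeping or 83 ribosomal protein genes, a replicate block, and leaving out single libraries.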

Additional observations from a re-analysis of the deposited data

How the results depend on the processing

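The rises of Retnla under IL4, the fall of Chi3l3 and rise of Tgm2 under LPS plus IFNg, and the differences of Retnla, Chi3l3, Ear11, Fn1 and Tgm2 between IL4 and LPS plus IFNg passed in every alternative that gave a value. The number of the 6 rows that passed, with 1 library left out, was 1 to 3 for IL4 against no stimulus, 2 to 3 for LPS plus IFNg against no stimulus and 5 to 6 for IL4 against LPS plus IFNg; over all rows it was 81 to 279, 650 to 1154 and 1238 to 1578. The first moved by over 1.5 times without IL4 replicate 1 (115), LPS plus IFNg replicates 1 (113), 2 (81) and 3 (92) or unstimulated replicates 1 (279) and 2 (269), and the second without LPS plus IFNg replicate 2 (716) or unstimulated replicate 2 (650). With the replicate number as a block 1 of the 6 rows passed for IL4 against no stimulus, and over all rows 8 for IL4 and 511 for LPS plus IFNg against no stimulus; of the 32 IL4 response genes 3 were higher for IL4, and 6 higher and 3 lower for LPS plus IFNg. Deviations from the group means correlated at -0.0791 to 0.0718 between same-numbered libraries and at -0.0718 to 0.0814 between the others. With means of so few libraries, these values cannot show whether the numbers pair the libraries. With only the 2 groups in the fit 7 rows passed for IL4 against no stimulus, where fewer libraries set the spread. Equal ribosomal protein means gave 5446 rows for LPS plus IFNg against no stimulus (5259 higher) and 6889 for IL4 against LPS plus IFNg (289 higher), with median shifts of 1.45 and -1.46. Equal housekeeping means gave 90 higher and 78 lower, 737 and 331, and 693 and 1021 in the 3 comparisons, with median shifts of 0.16, 0.41 and -0.25, against 70 and 108, 506 and 579, and 948 and 804 as deposited. The small LPS plus IFNg differences changed sign for Retnla without LPS plus IFNg replicate 1 (-0.0345, and up to 0.28 without other libraries), and for Chi3l4 with equal housekeeping (0.10) and ribosomal protein means (1.14). Chi3l3 (0.111) and Mgl2 (0.0599) did not pass under IL4 with the block. Ear11 did not pass against no stimulus with 2 groups (0.192), the block (0.192), housekeeping (0.061) or ribosomal (0.0531) means, and Chi3l4 against LPS plus IFNg with 2 groups (0.0501) or the block (0.0531). Fn1 passed against no stimulus with the low filter, under IL4 (0.0209) and LPS plus IFNg (0.0218), under IL4 with housekeeping means (0.0486), and under LPS plus IFNg with damping (0.0493) and values below 0 set to 0 (0.0459). The low filter removed Chi3l4 and Ear11, and with only 2 groups Ear11 was constant for LPS plus IFNg against no stimulus. The causes of these changes were not tested. Depth is unknown, so the precision of values near 0 cannot be given.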

Other observations

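The remaining lists give the wider state of these cells. Of 18 interferon response genes, 17 were higher and 0 lower in LPS plus IFNg than in unstimulated libraries, where 3.72% and 4.25% of all tested rows were. The median difference was 5.17, against -0.04 over all tested rows. In IL4 against LPS plus IFNg libraries 18 of 18 were lower, where 5.91% of all rows were (median -7.50, against 0). In IL4 against unstimulated libraries 0 were higher and 7 lower, where 0.514% and 0.793% of all rows were (median -2.01, against -0.01). The count of 7 was 2 to 4 with 1 library left out. Chi3l3 and Fn1 stood at their lowest, and Tgm2 at its highest, in the same LPS plus IFNg libraries. A link of these genes to interferon signalling was not tested. LPS and IFNg were given together, so their effects cannot be told apart.

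The summed linear level of 10 macrophage markers was 14210 to 19530 in IL4 libraries, 14720 to 15870 in LPS plus IFNg libraries and 24890 to 26360 in unstimulated libraries. Markers of mast cells and basophils summed to at most 19.6 in any library, with Fcer1a and Cma1 at 0 in all groups. Those of lymphocytes summed to 0 to 67.1 in IL4 libraries, 1.77 to 14.3 in LPS plus IFNg libraries and 2.98 to 17.3 in unstimulated libraries, with Cd3e and Ncr1 at 0 in all groups.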
